A study of Mus musculus with 4 samples.

Results

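The MYC, MAX and MXD network was examined as 10 genes of a table of 55359: the activators *Myc*, *Mycn* and *Mycl*, their common partner *Max*, and the antagonists *Mxd1*, *Mxd3*, *Mxd4*, *Mxi1*, *Mnt* and *Mga*. They were chosen by name, with results of the comparison below in view, so their differences between groups are a description and support nothing by themselves. All 10 passed the filter on low counts, *Mycl* through the IRF4-RV libraries alone, and entered the fit over 14637 genes.

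The cells were T8, leukemia cells derived from 1 tumor of an *Irf4*-/- animal on the C57BL/6 background. The labels describe them as a pB-ALL line of B progenitors. All libraries therefore carry the *Irf4* deletion, and the cultures of both groups had been treated with a retrovirus. The study also reports an acquired *Jak3* mutation in T8, and its T8 lines were established with a source of IL-7. The study does not state the share of transduced cells among those sequenced. It describes the sequenced cells as still viable and reports apoptosis after IRF4 was returned. The part of such survival in the results was not tested. EV-RV cells received a vector coding for GFP alone, and IRF4-RV cells received a vector coding for GFP plus IRF4, the transcription factor these cells lack. Bulk RNAseq was performed 24 h after transduction with 2 libraries per group (EV-RV replicates 1 and 2, IRF4-RV replicates 1 and 2), and the comparison addresses what the return of IRF4 does to the transcriptome. The labels call the libraries biological replicates of these cells from 1 tumor, and the protocol text names another line, T11, while titles and tissue name T8. The study derived more than 1 line from the T8 tumor and does not say which was sequenced.

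MYC proteins are basic helix-loop-helix leucine zipper transcription factors that bind DNA only as a pair with MAX, mostly at the E-box CACGTG, and raise genes of ribosome production, nucleotide synthesis and growth. MXD proteins, MXI1 and MNT compete for the same partner and the same sites and recruit SIN3 and histone deacetylases, so that their targets are repressed. MGA, the largest MAX partner, works within a Polycomb complex. In B progenitors, MYC is known to be driven by IL-7 and preB cell receptor signals and to decline when large cycling preB cells become small resting ones.

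E-boxes were looked for in the promoters of the network because its proteins bind them, together with motifs for IRF factors because IRF4 was the protein returned. RefSeq windows of GRCm38.p6, from 250 bases before to 50 bases after each annotated start, were found for 9 of the 10 members and held 11 promoters. *Myc* had no entry. The E-box CACGTG, which reads the same on either strand, lay in the windows of *Max*, *Mxd4* and *Mnt*, and 7.15% of 32851 promoters of this length hold it. The ETS-IRF composite motif, GGAA and GAAA with 2 bases of any kind between them, was searched on both strands and lay in 1 of the *Mxi1* promoters and in 2.72% of all promoters. The interferon-type motif (GAAA repeated after 2 bases of any kind) and the AP-1-IRF composite motif (TGANTCA followed at once by GAAA), searched the same way, were found in no member window and lay in 3.44% and 0.131% of all promoters. These matches are letters in a window and no evidence of binding. The start used for *Max* lies upstream of the GENCODE M21 gene, whose first base on the minus strand is 76962201. The end of its window was found in no GENCODE transcript of *Max*, so the position of its E-box is uncertain. The stretches of 60 bases around them are shown 5′ to 3′ on the strand of the gene, with the motif in capitals.
*Max* (chr12:76962222-76962281, minus strand, E-box starting at position -3 from the start): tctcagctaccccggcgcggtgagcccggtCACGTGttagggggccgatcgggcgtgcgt
*Mxd4* (chr5:34187900-34187959, minus strand, E-box at -219): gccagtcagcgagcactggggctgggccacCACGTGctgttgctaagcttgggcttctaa
*Mnt* (chr11:74830771-74830830, plus strand, E-box at -123): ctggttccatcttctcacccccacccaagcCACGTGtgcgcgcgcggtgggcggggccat
*Mxi1* (chr19:53329225-53329284, plus strand, ETS-IRF composite at -163): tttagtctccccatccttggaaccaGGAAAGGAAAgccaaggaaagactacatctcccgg

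The deposited values were counts of reads per gene, with totals between 31230223 and 37817752 per library. Levels are given as CPM, the counts scaled to library size with TMM factors. A level of 3 counts, used as the lower limit, lay between 0.0823 and 0.0951 CPM and covers counting error only. *Irf4* itself had 8070 and 7600 counts in EV-RV against 95578 and 90693 in IRF4-RV, a log2 fold change of 3.46 (SE 0.0907). Reads of the vector and of the disrupted gene are not separated in these counts. Of the B lineage markers, *Cd79b* lay at 293 and 293 CPM in EV-RV and 289 and 293 CPM in IRF4-RV, and *Cd79a* lay higher, whereas *Rag1* had at most 1 count. Over the 9 tested genes of this list 3 were called lower (*Igll1*, *Vpreb1* and *Il7r*) and none higher, with a median log2 fold change of -0.24, and the list summed to 5097 and 5474 CPM in EV-RV against 4347 and 4322 CPM in IRF4-RV. Markers of T and NK cells summed to 19.8 and 20.3 CPM in EV-RV against 12.7 and 13.1 CPM in IRF4-RV, where *Trac* was called lower and *Cd8a* and *Ncr1* were at 0. Those of macrophages summed to 1.53 and 1.33 CPM against 8.41 and 7.22 CPM, where *Mrc1* was called higher (log2 fold change 3.26) and *Adgre1* was at 0. Granulocyte and red cell markers summed to at most 0.165 and 6.45 CPM in any library. The part of these markers in the results was not tested. A list of 8 stromal genes summed unevenly, with 49.8 and 93.7 CPM in EV-RV and 48.9 and 232.0 CPM in IRF4-RV replicates 1 and 2. These genes were led by the collagen genes *Col1a2* and *Col1a1*. The median log2 fold change of the 6 stromal genes tested was 0.92, none was called, and the part of this signal in the results was not tested beyond leaving replicate 2 out. In bulk RNA, fewer cells of a type and less RNA per cell cannot be told apart.

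The activators *Myc* and *Mycn* were lower with IRF4-RV, while the partner *Max* and the antagonists *Mxd3* and *Mxd4* were higher. *Mycl* appeared at trace level, and *Mxd1*, *Mxi1*, *Mnt* and *Mga* were not called. A gene was called when edgeR's quasi-likelihood test gave a Benjamini-Hochberg adjusted p under 0.1 over all genes tested. By this rule 4 members were higher, *Mycl* among them, and 2 lower. Beside this, 16.0% of all genes were higher and 13.7% lower (29.7% in either direction). The groups did not overlap in CPM for 7 members, beside 61.3% of all genes. Because the members were named with these results known, nothing is read from either count. The plot of the members by library shows the levels behind them.

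**Figure D1:**
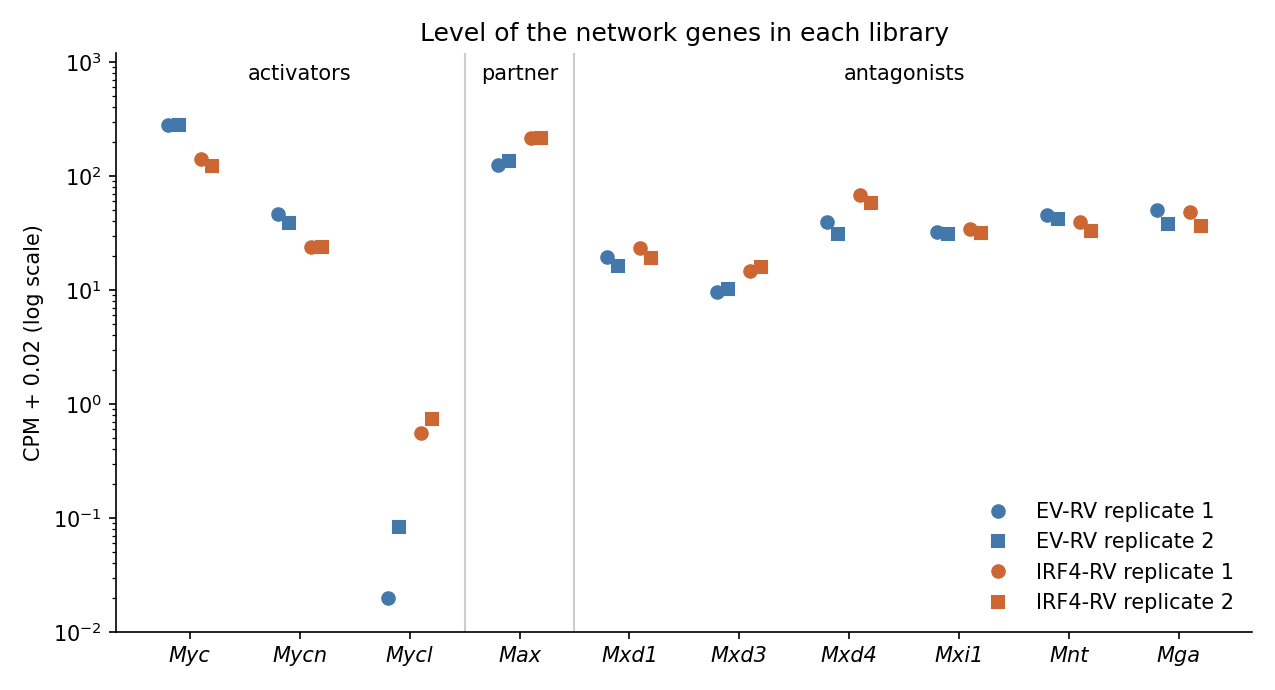
Level of each member in each library, as CPM + 0.02 on a log scale, with EV-RV in blue, IRF4-RV in orange, circles for replicate 1 and squares for replicate 2. *Myc* and *Mycn* lie lower with IRF4-RV and *Max*, *Mxd3* and *Mxd4* higher, while the groups of *Mxd1*, *Mxi1* and *Mga* overlap and *Mycl* stays under 1 CPM.

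*Myc* (ENSMUSG00000022346, chromosome 15 of GRCm38 from 61985391 to 61990374, plus strand), the main driver of growth in lymphoid progenitors, had 9322 and 8915 counts in the EV-RV libraries against 4804 and 4479 in the IRF4-RV libraries. All EV-RV values lay well above all IRF4-RV values. The mean fell from 281 ± 2.37 CPM (SD, n = 2) to 132 ± 13.3 CPM (SD, n = 2), or 0.471 of the control. The log2 fold change was -1.09 (SE 0.0873, 95% interval -1.29 to -0.88), and 2.49% of all genes tested had a lower one. It lay between -1.21 and -0.98 when each library was left out in turn. The neighboring *Pvt1*, a long noncoding RNA gene of the same locus, had 65, 72, 59 and 53 counts in EV-RV replicates 1 and 2 and IRF4-RV replicates 1 and 2. Its log2 fold change of -0.40 (SE 0.268, edgeR adjusted p = 0.334) was not called.

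*Mycn* (ENSMUSG00000037169, chromosome 12 from 12936093 to 12941914, minus strand), the paralog that B progenitors also use, had 1554 and 1209 counts in EV-RV against 809 and 871 in IRF4-RV. Both IRF4-RV libraries lay at 23.9 CPM, under the 46.5 and 38.3 CPM of EV-RV. The level with IRF4-RV was 0.563 of that with EV-RV, with a log2 fold change of -0.83 (SE 0.112, 95% interval -1.09 to -0.57). *Mycl* (ENSMUSG00000028654, chromosome 4 from 122995652 to 123002485, plus strand), the third activator, had 0 and 2 counts in EV-RV against 18 and 26 in IRF4-RV. These levels, 0.531 and 0.714 CPM with IRF4-RV, are traces beside the other activators, and EV-RV stayed under the limit of 3 counts in each library. After scaling, the 44 counts against 2 gave a ratio of 20.3 (exact 95% interval 5.30 to 173, counting error only). The fitted log2 fold change of 4.18 depends on the prior count and is no bound. As *Mycl* entered the fit through the IRF4-RV libraries alone, neither the interval nor its call counts as support for a rise.

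*Max* (ENSMUSG00000059436, chromosome 12 from 76937269 to 76962201, minus strand), the partner shared by every other member, moved against *Myc*. Its counts were 4151 and 4313 in EV-RV against 7277 and 7894 in IRF4-RV. The 215 and 217 CPM of the IRF4-RV libraries lay closer together than the 124 and 137 CPM of the EV-RV libraries, and the groups did not overlap. *Max* was 1.65 times as high with IRF4-RV, with a log2 fold change of 0.72 (SE 0.0782, 95% interval 0.54 to 0.91), and 91.0% of all genes tested had a lower one. Its value with 1 library left out lay between 0.65 and 0.80.

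The antagonists did not move as a group. *Mxd4* (ENSMUSG00000037235, chromosome 5 from 34173883 to 34187720, minus strand), an MXD gene known from differentiating cells, had 1310 and 981 counts in EV-RV against 2289 and 2106 in IRF4-RV. Its 67.5 and 57.8 CPM with IRF4-RV lay above the 39.2 and 31.1 CPM with EV-RV. The fold was 1.78 and the log2 fold change 0.83 (SE 0.131, 95% interval 0.53 to 1.14), and 92.6% of all genes tested had a lower one. *Mxd3* (ENSMUSG00000021485, chromosome 13 from 55325168 to 55329823, minus strand), the MXD gene known from dividing cells, had 322, 324, 499 and 583 counts in EV-RV replicates 1 and 2 and IRF4-RV replicates 1 and 2. The IRF4-RV libraries were again the higher ones, at 1.54 times the control, with a log2 fold change of 0.63 (SE 0.113, 95% interval 0.36 to 0.89). *Mxd3* shares 105 exonic bases with *Prelid1* on the opposite strand, which had between 12239 and 16680 counts. Whether strand was used in counting is not given in the sources used here, so the value of *Mxd3* is uncertain. *Mxd4* shares 514 exonic bases with *Gm42846* and *Mxi1* 194 with *Gm10197*, both on the opposite strand and at 0 counts. The levels of *Mxd4* and *Mxi1* therefore carry the same uncertainty over these bases.

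The other 4 antagonists were not called. *Mxd1* (ENSMUSG00000001156, chromosome 6 from 86647042 to 86669161, minus strand), the founding MXD gene, had 19.3 and 16.1 CPM in EV-RV against 23.4 and 19.1 CPM in IRF4-RV. The lower IRF4-RV library lay within the EV-RV range, and the log2 fold change was 0.26 (SE 0.137, 95% interval -0.05 to 0.58). *Mxi1* (ENSMUSG00000025025, chromosome 19 from 53310518 to 53375810, plus strand), also an MXD protein, had 1083 and 978 counts in EV-RV against 1167 and 1163 in IRF4-RV. Its groups overlapped in CPM, the log2 fold change was 0.06 (SE 0.0913, 95% interval -0.15 to 0.28), and its sign turned with library size scaling alone (-0.03).

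*Mnt* (ENSMUSG00000000282, chromosome 11 from 74830920 to 74845725, plus strand), the broadly expressed antagonist of MYC, did not share the direction of *Mxd3* and *Mxd4*. It had 45.6 and 41.7 CPM in EV-RV against 39.2 and 32.6 CPM in IRF4-RV, so the groups did not overlap but lay close. The log2 fold change was -0.28 (SE 0.112, 95% interval -0.54 to -0.02). Without IRF4-RV replicate 1 it was -0.44 and called, whereas without IRF4-RV replicate 2 it was -0.15 and not called. *Mga* (ENSMUSG00000033943, chromosome 2 from 119897228 to 119969581, plus strand) had 50.5 and 37.7 CPM in EV-RV against 48.8 and 36.1 CPM in IRF4-RV. Replicate 1 exceeded replicate 2 by 0.42 with EV-RV and 0.43 with IRF4-RV on the log2 scale, whereas the log2 fold change between groups was -0.06 (SE 0.174, 95% interval -0.46 to 0.35).

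**Figure D2:**
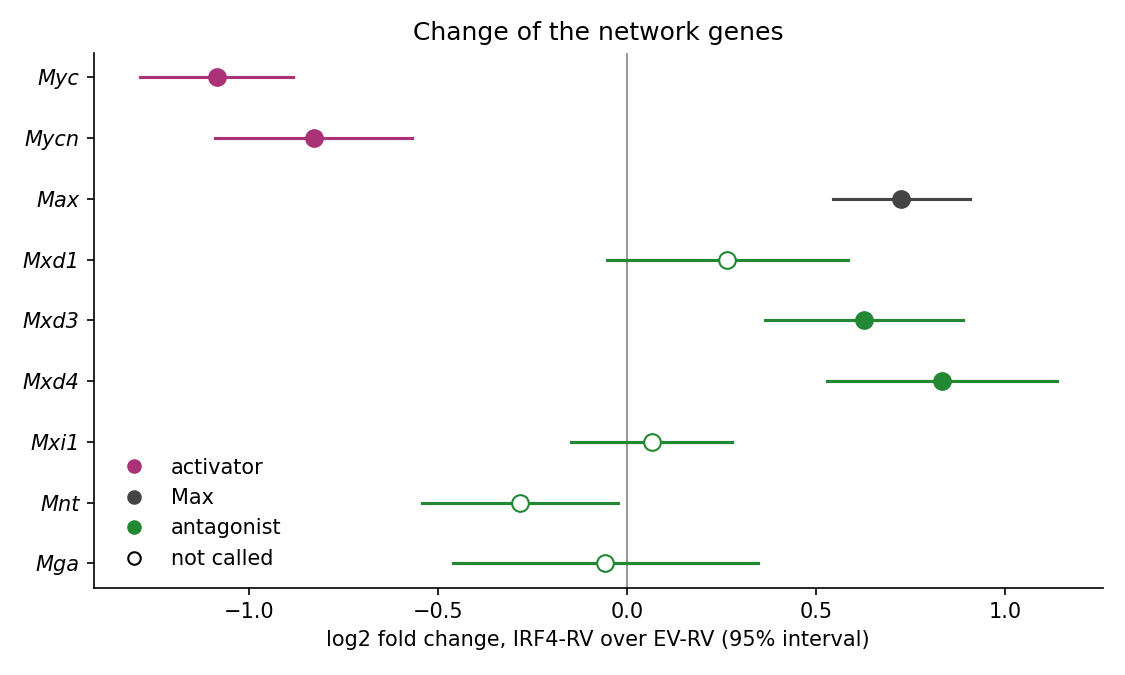
Log2 fold change of 9 members, IRF4-RV over EV-RV, with 95% intervals from the edgeR fit (filled points called, open points not called), *Mycl* being left out because it rests on 2 counts in EV-RV. The intervals of *Myc*, *Mycn* and *Mnt* (not called) lie below 0, those of *Max*, *Mxd3* and *Mxd4* above 0. Those of *Mxd1*, *Mxi1* and *Mga* span 0.

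Without IRF4-RV replicate 2, the library with the high stromal signal, the log2 fold changes were -0.98 for *Myc*, -0.83 for *Mycn*, 0.72 for *Max*, 0.57 for *Mxd3* and 0.95 for *Mxd4*, and these genes were still called. The log2 fold change of *Mxd1* was then 0.41. With 1 library in a group, the spread of that group is taken from the other.

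To set genes beside each other, CPM was divided by the length of the gene's exons in kilobases. On this scale *Myc* stood first with EV-RV at 103 ± 0.873 CPM per kb (SD, n = 2), followed by *Max* at 36.3, *Mycn* at 12.9 and *Mnt* at 9.43 (group means). *Mxi1* and *Mxd3* followed without overlap between them, *Mxd4* overlapped with each of them over its libraries. Below them *Mga* and *Mxd1* overlapped, and *Mycl* came last. With IRF4-RV the order of the first members turned, with *Max* at 59.9 and *Myc* at 48.7 ± 4.89 CPM per kb (SD, n = 2). *Mnt*, *Mxd4* and *Mycn* then overlapped between 6.81 and 8.46 CPM per kb, *Mxd3* and *Mxi1* came next, and *Mxd1* and *Mga* overlapped below them. The exons of *Mxd4* cover 8483 bases but its longest transcript 4627, against 4627 and 4590 for *Mnt* and 3295 and 2674 for *Mycn*. With the longest transcript *Mxd4* would lie higher, so the places given for it hold for exon length only. Among all genes tested, the level of *Myc* per kb stood at the 95.3 percentile with EV-RV and the 90.4 percentile with IRF4-RV, and that of *Max* at 87.6 and 92.1.

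The ratio of *Max* to *Myc* per kb was 0.336 and 0.365 in the EV-RV libraries and 1.14 and 1.33 in the IRF4-RV libraries. *Max* lay under *Myc* in both EV-RV libraries and above it in both IRF4-RV libraries. The same order held with the length of the longest transcript, with *Myc* at 119 and 121 against *Max* at 64.0 and 70.4 CPM per kb with EV-RV, and 60.6 and 52.6 against 111 and 112 with IRF4-RV. RNA levels of the pair give no amount of either protein.

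Summed over the activators, the level was 116.9 and 115.6 CPM per kb in EV-RV against 59.5 and 52.7 CPM per kb in IRF4-RV, and *Myc* held between 85.9% and 89.9% of this sum in each library. The 6 antagonists summed to 29.3 and 26.3 CPM per kb in EV-RV against 34.2 and 30.3 CPM per kb in IRF4-RV. The activator sum was 0.483 of the control, whereas the antagonist sum was 1.16 times the control, with groups that did not overlap but lay close. The ratio of activators to antagonists was 3.99 and 4.40 with EV-RV and 1.74 in both IRF4-RV libraries, a difference of -1.27 on the log2 scale. It was -1.54 without *Mga* and *Mnt* among the antagonists and -0.61 with *Max* added to the activators. No test was made of this score, which follows from members chosen with results known.

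**Figure D3:**
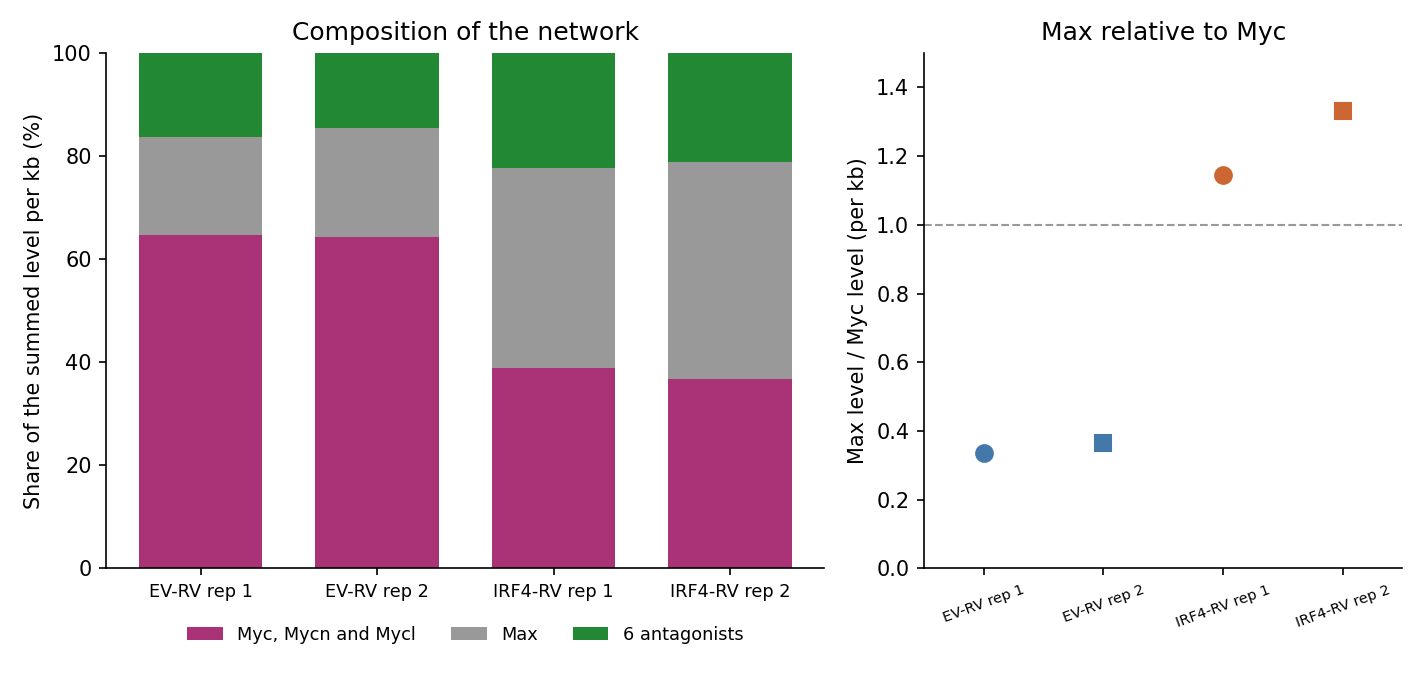
Left, share of the summed level per kb of the 10 members held by the activators, *Max* and the 6 antagonists in each library (%), and right, the level of *Max* over that of *Myc* per kb, with a dashed line at equal levels. Activators hold 64.7% and 64.3% in EV-RV but 38.8% and 36.8% in IRF4-RV, and *Max* passes *Myc* in both IRF4-RV libraries.

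The share of *Max* in the summed network was 19.1% and 21.1% in EV-RV against 38.9% and 42.0% in IRF4-RV. The antagonists held 16.2% and 14.6% in EV-RV against 22.3% and 21.2% in IRF4-RV. Because the shares add up to the whole, the fall of the activators by itself raises both other shares. In level, *Max* went from 36.3 to 59.9 CPM per kb and the antagonist sum from 27.8 to 32.3 (group means). Within the antagonists, *Mnt* went from 33.6% and 34.3% of their sum to 24.8% and 23.2%. *Mxd4* went from 15.8% and 13.9% to 23.3% and 22.5%, and *Mxd3* from 13.9% and 16.5% to 18.2% and 22.3%. *Myc* exceeded *Mxd4* 22.2 and 28.4 times per kb in EV-RV but 6.55 and 6.64 times in IRF4-RV. These shares and ratios use exon length. With the longest transcript the share of *Mxd4* would be larger and the excess of *Myc* over it smaller.

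Genes around the network were taken from lists written from textbook knowledge. Among 50 genes that MYC is known to raise, 41 fell and 1 rose, a share of 84% called beside the 29.7% of all genes. Their median log2 fold change was -0.47 beside 0.01 over all genes tested. The largest fall was that of *Srm*, which makes spermidine, with 8057 and 7471 counts in EV-RV against 3339 and 3880 in IRF4-RV (log2 fold change -1.22, SE 0.0766, edgeR adjusted p = 3.55e-05). *Rrs1*, a ribosome assembly factor, followed at -0.91 (SE 0.0736, edgeR adjusted p = 0.000138), and *Polr1b*, a core subunit of RNA polymerase I, at -0.90 (SE 0.0763, edgeR adjusted p = 0.000173). In each of these genes every EV-RV library lay above every IRF4-RV library. *Ccnd2*, which codes for cyclin D2, was the exception, with a log2 fold change of 1.37 (SE 0.079, edgeR adjusted p = 2.6e-05). The summed level of the list was 21748 and 22679 CPM in EV-RV against 18490 and 18627 CPM in IRF4-RV. The median log2 fold change of the list lay between -0.54 and -0.45 with 1 library left out. With the library of high stromal signal left out, this median was -0.49.

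Of 8 genes that MYC is known to repress, 7 were tested, 5 rose and none fell, with a median log2 fold change of 0.55. *Gadd45g*, a growth arrest gene, had 203 and 138 counts in EV-RV against 1146 and 901 in IRF4-RV (log2 fold change 2.48, SE 0.2, edgeR adjusted p = 0.000136). Its sister gene *Gadd45a* rose by 0.70 (SE 0.18, edgeR adjusted p = 0.0283). The CDK inhibitor genes *Cdkn2b*, *Cdkn1b* and *Cdkn2c* rose by 0.92, 0.55 and 0.19, with edgeR adjusted p-values of 0.000299, 0.00716 and 0.0966. With any 1 library left out, 4 genes of the list were called higher. *Cdkn1a*, another CDK inhibitor, had a log2 fold change of -0.01 (edgeR adjusted p = 0.982) and *Ndrg1* one of -0.06 (edgeR adjusted p = 0.77). Both overlapped between groups, and *Ndrg2* had between 2 and 4 counts and was not tested. These lists were written with earlier results of these data known and are read only beside the 29.7% of all genes called.

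**Figure D4:**
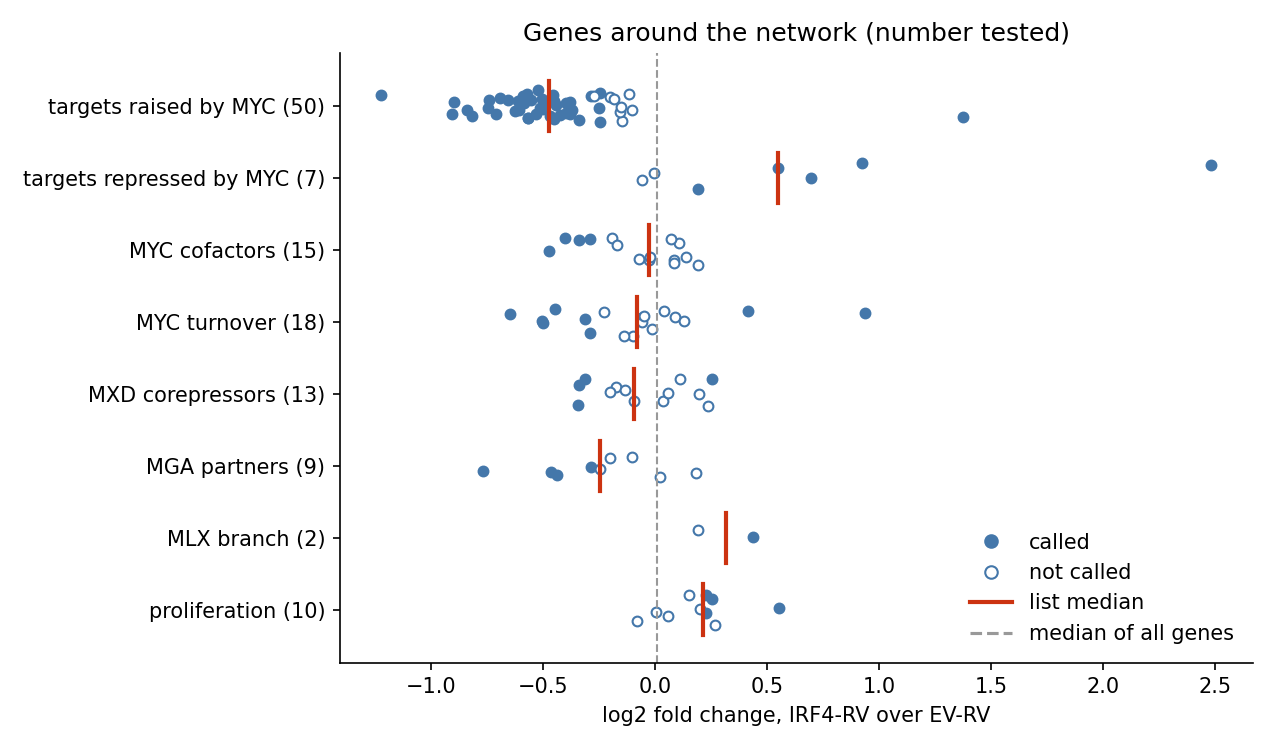
Log2 fold change, IRF4-RV over EV-RV, of each tested gene in 8 lists around the network (filled points called, open points not called), with the median of each list in red and that of all genes as a dashed line. The genes that MYC raises lie mostly left of 0 with a median of -0.47, 5 of the 7 it represses lie right of 0 with a list median of 0.55, and the medians of cofactors and corepressors lie near that of all genes.

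Of 15 cofactors of MYC, 4 fell and none rose, a share of 26.7% near the 29.7% of all genes called, with a median log2 fold change of -0.03. *Wdr5*, a chromatin adaptor that binds MYC, went from 114 and 118 CPM to 82.2 and 85.2 CPM (log2 fold change -0.47, SE 0.0746, edgeR adjusted p = 0.00346). *Ruvbl2*, an ATPase of chromatin remodeling complexes, was at -0.40 (edgeR adjusted p = 0.00979), and the acetyltransferase gene *Kat2a* at -0.34 (edgeR adjusted p = 0.0159). The other 11 were not called, and the sign of the list's median turned with single libraries left out (-0.19 to 0.05).

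Of 18 genes that set the turnover of MYC protein, 2 rose and 6 fell, a share of 44.4% beside the 29.7% of all genes called. The median of -0.08 lay between -0.27 and -0.0012 with 1 library left out. It was lowest without IRF4-RV replicate 1 and highest without IRF4-RV replicate 2. *Btrc*, the substrate receptor of a ubiquitin ligase, had 50.5 and 47.6 CPM in EV-RV against 94.8 and 92.9 CPM in IRF4-RV (log2 fold change 0.94, SE 0.0793, edgeR adjusted p = 0.000173). *Aurka*, a mitotic kinase that shields N-MYC, rose by 0.41 (edgeR adjusted p = 0.0125). *Set*, an inhibitor of the phosphatase PP2A, was at -0.65 (edgeR adjusted p = 0.000578). The deubiquitinase genes *Usp28* and *Usp36*, which act on MYC, were both at -0.50 (edgeR adjusted p = 0.0167 and 0.00779). The called genes of this list thus stand on either side, and RNA shows nothing of the protein's stability.

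Of 14 corepressors of MXD proteins 13 were tested, 1 rose and 3 fell, a share of 30.8% near the 29.7% of all genes, with a median of -0.09 that turned sign with 1 library left out (-0.16 to 0.03). The histone deacetylase gene *Hdac1* rose by 0.25 (SE 0.0714, edgeR adjusted p = 0.0392), a call that was lost without IRF4-RV replicate 1 and with library size scaling alone. The deacetylase gene *Hdac2* was at -0.31 (edgeR adjusted p = 0.0257), and *Rbbp7* and *Ing2*, chromatin binding subunits of the SIN3 complex, were both at -0.34 (edgeR adjusted p = 0.0113 and 0.0664). Of 9 partners of MGA in its Polycomb complex, 4 fell and none rose, with a median of -0.24. In this short list that is a share of 44.4% called, beside the 29.7% of all genes. *Pcgf6*, the subunit that defines this complex, had 24.9 and 28.7 CPM in EV-RV against 14.2 and 17.2 CPM in IRF4-RV (log2 fold change -0.77, SE 0.126, edgeR adjusted p = 0.00413). The transcription factor gene *E2f6* was at -0.47 (edgeR adjusted p = 0.0154) and *Rybp* at -0.44 (edgeR adjusted p = 0.00896). *Mga* itself, as given above, had an interval that spanned 0.

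The parallel branch, in which MLX takes the place of MAX and reads glucose supply, was represented by *Mlx*, *Mlxip* (MondoA) and *Mlxipl* (ChREBP). *Mlx* had 34.0 and 39.1 CPM in EV-RV against 40.6 and 42.9 CPM in IRF4-RV, and its log2 fold change of 0.19 (SE 0.0994, edgeR adjusted p = 0.215) was not called. *Mlxip* rose by 0.44 (SE 0.128, edgeR adjusted p = 0.0447), a call that was lost without EV-RV replicate 2, without IRF4-RV replicate 1 and with library size scaling alone. *Mlxipl* had 0, 0, 3 and 3 counts and was not tested. Of the MondoA targets, *Txnip*, an inhibitor of glucose uptake, went from 11.7 and 9.03 CPM to 17.7 and 15.1 CPM (log2 fold change 0.66, SE 0.153, edgeR adjusted p = 0.0186), and *Arrdc4* had 2, 6, 5 and 22 counts and was not tested.

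Proliferation genes did not follow *Myc*. Of 10 such genes, 4 rose and none fell, a share of 40% beside the 29.7% of all genes called. Their median log2 fold change was 0.21 (0.11 without EV-RV replicate 2). The largest rise was that of the centromere histone gene *Cenpa* at 0.55 (SE 0.0914, edgeR adjusted p = 0.00421). The mitotic kinase genes *Plk1* and *Aurkb* rose by 0.25 and 0.23 (edgeR adjusted p = 0.0426 and 0.0554). The count depended on scaling, since with library size alone 1 gene was called higher and 1 lower, and it was 1 without IRF4-RV replicate 1 and 2 without IRF4-RV replicate 2. Library size scaling moved the median of all genes from 0.01 to -0.08 and the share of calls that were higher from 53.8% to 37.8%, while *Myc*, *Mycn*, *Max*, *Mxd3* and *Mxd4* kept their direction and their call.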

How the data were processed

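Bulk RNAseq libraries of T8 cells with EV-RV or IRF4-RV (2 each) were grouped by the condition in their labels. Libraries were made with the NEBNext Ultra II kit. Per the labels, the authors aligned reads to GRCm38 with STAR 2.4.0j, checked them with FastQC 0.11.2 and counted with featureCounts, and DESeq2 1.22.1 is among their tools. The deposited values are raw counts per Ensembl gene. Strand and multimapping settings are not given in the sources used here, so overlapping genes and genes with near-identical copies are uncertain. Of 55359 identifiers, 52083 matched GENCODE M21 on GRCm38, which gave symbols, positions and exon lengths. The other 3276 held 0.203% to 0.486% of the counts.

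Genes passing filterByExpr were tested with edgeR 4.0.16 in R 4.3.3 (TMM, quasi-likelihood F test, Benjamini-Hochberg adjustment over 14637 genes, FDR 0.1 as in the study's methods). SE is the log2 fold change over the square root of F. Replicates differed by more than sampling noise (chi-square per degree of freedom 15.5 and 14.3). The p-values measure the spread between these libraries of cells from 1 tumor. The members and lists were chosen with earlier results of these data known. All members were named, as were all genes of the MLX, MondoA target, *Pvt1* and MYC-repressed lists, and in each other list the 3 called genes that rose most and the 3 that fell most. B lineage, stromal and other cell markers were read from fixed lists. Alternatives were DESeq2 1.42.0, its size factors in edgeR, library size only, 2 filters, the replicate block, an FDR of 0.05, other lengths and groupings for the balance, and each library left out. The fit was run first on simulated data with planted changes, drawn independently for each library. Any deviation shared by libraries of the same replicate number was thus not simulated.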

Additional observations from a re-analysis of the deposited data

How the results depend on the processing

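With 2 libraries per group, small differences and levels near 3 counts (*Mycl*) were at the limit of what can be shown. Across the alternatives, 99 log2 fold changes of members were recomputed and no call was lost, except that DESeq2 gave no adjusted p for *Mycl* and the filter at a mean of 50 counts removed it. In 7 cases a member became called: *Mnt* with library size only (-0.37), all genes with at least 1 count (-0.28), a mean of at least 50 counts (-0.30), the block (-0.29) and without IRF4-RV replicate 1 (-0.44), and *Mxd1* with the block (0.26) and without IRF4-RV replicate 2 (0.41). The log2 fold change of *Mxi1* (0.065) turned sign with library size only (-0.027) and ranged from -0.011 to 0.12 with single libraries left out, the lowest without IRF4-RV replicate 1. That of *Mga* ranged from -0.31 to 0.16 and turned sign without EV-RV replicate 1 (0.16) and without IRF4-RV replicate 2 (0.15). The cause was not tested.

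Leaving out single libraries gave 3573 to 3646 genes called beside 4349 (fewer samples), 4 to 5 members higher and 2 to 3 lower, 1 target of MYC higher and 36 to 44 lower, and a balance of activators over antagonists between -1.34 and -1.20. The balance was -1.35 with the longest transcript, -0.61 with *Max* among the activators and -1.54 without *Mga* and *Mnt*. DESeq2 called 3661 genes. Samples shared only a replicate number, with a correlation of same-numbered deviations of 0.284 across genes. The fit with the replicate block called 6394 genes (43.7%), 5 members higher and 3 lower, 45 targets of MYC lower, and in the lists 7 proliferation genes, 2 MLX genes, 3 corepressors and 1 partner of MGA higher, 5 corepressors and 6 partners of MGA lower, and 5 of the 6 stromal genes higher. Genes repressed by MYC called higher were 4 beside 5 with DESeq2, its size factors, library size only, all genes with at least 1 count and an FDR of 0.05. With library size only, 0 MLX genes and 0 corepressors were higher and 5 corepressors lower, and an FDR of 0.05 left 2 proliferation genes.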
